A study of Felis catus with 3 samples.

Results

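CCNB1, TPX2 and KIF20A were examined in noninduced feline adipose-derived mesenchymal stem cells (ASCs) as 3 genes of G2 and mitosis, out of the 21529 genes with deposited values. The genes were chosen by symbol and matched to Ensembl identifiers through the gene table of the study, and all 3 had a value above 0 in every library. The question was how high these genes stood in cultured stromal cells and whether they ranked the cultures alike. Expression was measured by strand-specific sequencing of poly-adenylated RNA in 3 primary cultures, each grown from the fat of its own donor cat and sequenced as 1 library. All cultures were untreated and not induced to differentiate, grew in MEMα with 10% fetal bovine serum and were used at passages 3 to 4 per the labels, or at passage 3 per the legend of the study's gene table. They are called Feline ASC 1, Feline ASC 2 and Feline ASC 3. The study took fat from specific pathogen-free and from client-owned cats, and the label of the cat behind Feline ASC 3 begins with SPF. The density of each culture at harvest is not given in the sources used here, so cat and density cannot be told apart.

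Dividing cells transcribe a set of genes periodically, with the messenger RNAs of many mitotic proteins peaking in G2 and mitosis and being low in resting cells. Cyclin B1, the product of CCNB1, binds the kinase CDK1, and the pair drives the cell from G2 into mitosis until the anaphase-promoting complex marks the cyclin for destruction. TPX2 nucleates microtubules around the chromosomes and activates the Aurora A kinase on the spindle, and it is held inactive by importin alpha until the nuclear envelope breaks down. KIF20A is a kinesin that brings the chromosomal passenger complex to the middle of the anaphase spindle and is needed to split the cell. The level of such genes in a bulk culture is widely read as a sign of proliferation. In bulk RNA, fewer cells in mitosis and less of the RNA per mitotic cell cannot be told apart.

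All values are FPKM, that is, fragments scaled to transcript length and to library size, so that levels of different genes can be compared. They do not give the reads behind a value, so the counting error is not known. Feline ASC 2 had the largest sum of FPKM (688297), and the sums of Feline ASC 1 and 3 were 621797 and 636464. It also seemed to be the shallowest library, because among genes under 0.15 FPKM the most frequent ratio of Feline ASC 1 to Feline ASC 2 was 0.911, and that of Feline ASC 2 to Feline ASC 3 was 1.40. These ratios reflect what 1 fragment is worth, and they held for 22.2% and 10.8% of such genes within 1%, so the second is less plain. With 1 library per line, no difference could be set against the spread between repeat libraries and no test was possible. A difference of 1.5-fold or more in FPKM + 1 was therefore described beside the share of all genes that differed as much.

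CCNB1 was the highest of the 3 genes in every line and was lowest in Feline ASC 2. Its levels in Feline ASC 1, 2 and 3 were 40.4, 24.6 and 51.3 FPKM, with a mean of 38.8 ± 13.4 FPKM (SD, n = 3 lines). The gene (ENSFCAG00000001572) lies on chromosome A1, 136303585 to 136311564 of Felis Catus 8.0. Feline ASC 3 was thus 2.04-fold above Feline ASC 2 on the FPKM + 1 scale, the widest gap among the 3 genes. Feline ASC 1 lay between them, 1.62-fold above Feline ASC 2, whereas Feline ASC 3 was only 1.26-fold above Feline ASC 1. These levels put CCNB1 at the 89.3rd, 83.1st and 91.6th percentile of all 21529 genes in Feline ASC 1, 2 and 3. Only 14356, 14151 and 14351 of these genes were above 0 in the 3 lines, and the genes at 0 raise the percentiles.

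TPX2 (ENSFCAG00000001898; chromosome A3, 26746294 to 26789339) ranked the lines in the same way at a lower level. Its levels in Feline ASC 1, 2 and 3 were 17.5, 12.8 and 24.2 FPKM, a mean of 18.2 ± 5.73 FPKM (SD, n = 3 lines). The spindle factor was 1.83-fold higher in Feline ASC 3 than in Feline ASC 2. Feline ASC 1 stood 1.34-fold above Feline ASC 2 and Feline ASC 3 stood 1.36-fold above Feline ASC 1, so that the middle line was about as far from one as from the other, and neither step reached 1.5-fold.

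KIF20A again had its lowest level in Feline ASC 2 and its highest in Feline ASC 3. The kinesin gene (ENSFCAG00000001710) had levels of 17.4, 10.5 and 19.8 FPKM in Feline ASC 1, 2 and 3, a mean of 15.9 ± 4.85 FPKM (SD, n = 3 lines). Feline ASC 3 was 1.82-fold and Feline ASC 1 was 1.60-fold above Feline ASC 2. The step from Feline ASC 1 to Feline ASC 3 was 1.13-fold, and 21.5% of all genes compared differed at least as much in this direction, so KIF20A did not separate these lines beyond the ordinary spread of genes. The locus given for KIF20A on chromosome A1, 115240580 to 115269006, is also given for CDC23, a core subunit of the anaphase-promoting complex. The assignment of fragments between these genes is uncertain, since it is not stated whether the quantification used the strand of the reads. CDC23 had 10.4, 10.1 and 11.5 FPKM in Feline ASC 1, 2 and 3 and thus differed far less between lines than its neighbour.

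**Figure D1:**
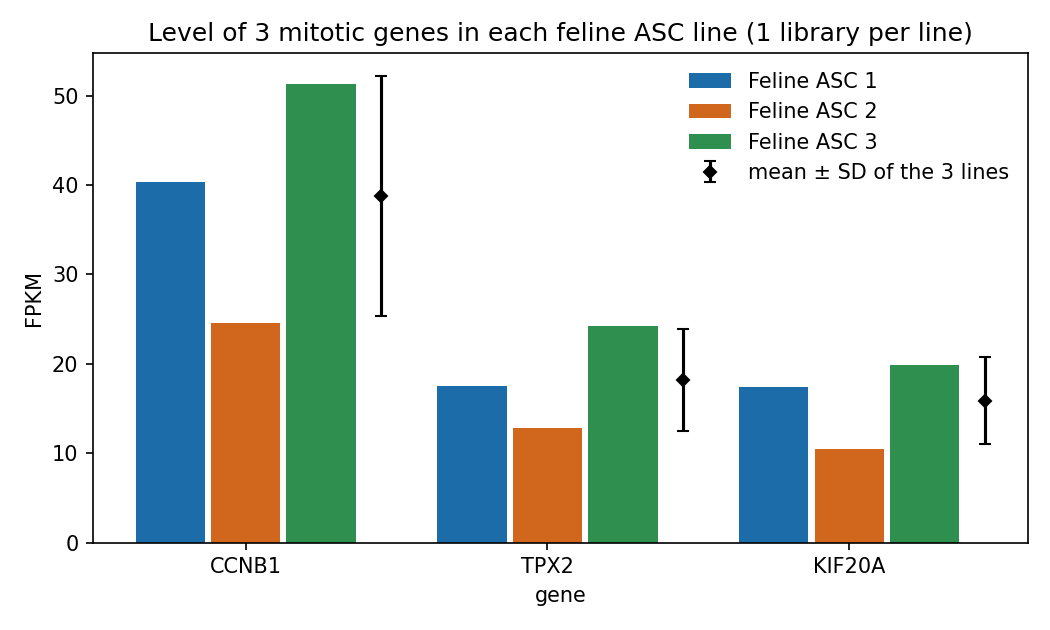
FPKM (vertical axis) of CCNB1, TPX2 and KIF20A in Feline ASC 1, 2 and 3 (bars, 1 library each), with the mean and SD of the 3 lines as a diamond and whisker. For each gene Feline ASC 2 is the lowest bar and Feline ASC 3 the highest, and CCNB1 runs from 24.6 to 51.3 FPKM.

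The 3 genes ranked the lines alike, with Feline ASC 3 above Feline ASC 1 and Feline ASC 1 above Feline ASC 2. Of the 11601 genes with 1 FPKM or more in at least 1 line, 18.2% had this order, which is 1 of 6 possible orders. The order combined with a gap of 1.5-fold or more between Feline ASC 3 and Feline ASC 2, as in all 3 genes, was found for 5.89% of these genes. Among the 8083 genes with a mean of 5 to 120 FPKM, a range that holds the 3 mitotic genes, the corresponding shares were 18.3% and 5.20%. For CCNB1 and KIF20A, the step from Feline ASC 2 to Feline ASC 1 was larger than that from Feline ASC 1 to Feline ASC 3. For TPX2 these steps were about equal, at 1.34-fold and 1.36-fold.

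Gene by gene, the gap between Feline ASC 3 and Feline ASC 2 was in the upper tail of all genes. Feline ASC 3 was higher by 1.5-fold or more for 9.31% of the genes compared, and for all 3 mitotic genes. A gap at least as large as that of CCNB1 was found for 2.99% of genes, as large as that of TPX2 for 4.63% and as large as that of KIF20A for 4.73%. Between Feline ASC 2 and Feline ASC 1, CCNB1 and KIF20A were lower in Feline ASC 2 by 1.5-fold or more, as were 9.79% of all genes, and TPX2 was not. In the opposite direction 9.4% of all genes and none of the 3 passed. Between Feline ASC 3 and Feline ASC 1, 3.43% of genes were higher in Feline ASC 3 by 1.5-fold or more and 5.29% were lower, and none of the 3 mitotic genes was in either set. CCNB1 and TPX2 were nearer to that limit than KIF20A, with 10.0% and 6.10% of genes at least as far apart in their direction. For comparison, genes with a mean of 10 to 50 FPKM typically differed by 1.14-fold between Feline ASC 3 and Feline ASC 2 (median over 4846 genes) and by 1.10-fold between Feline ASC 3 and Feline ASC 1.

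**Figure D2:**
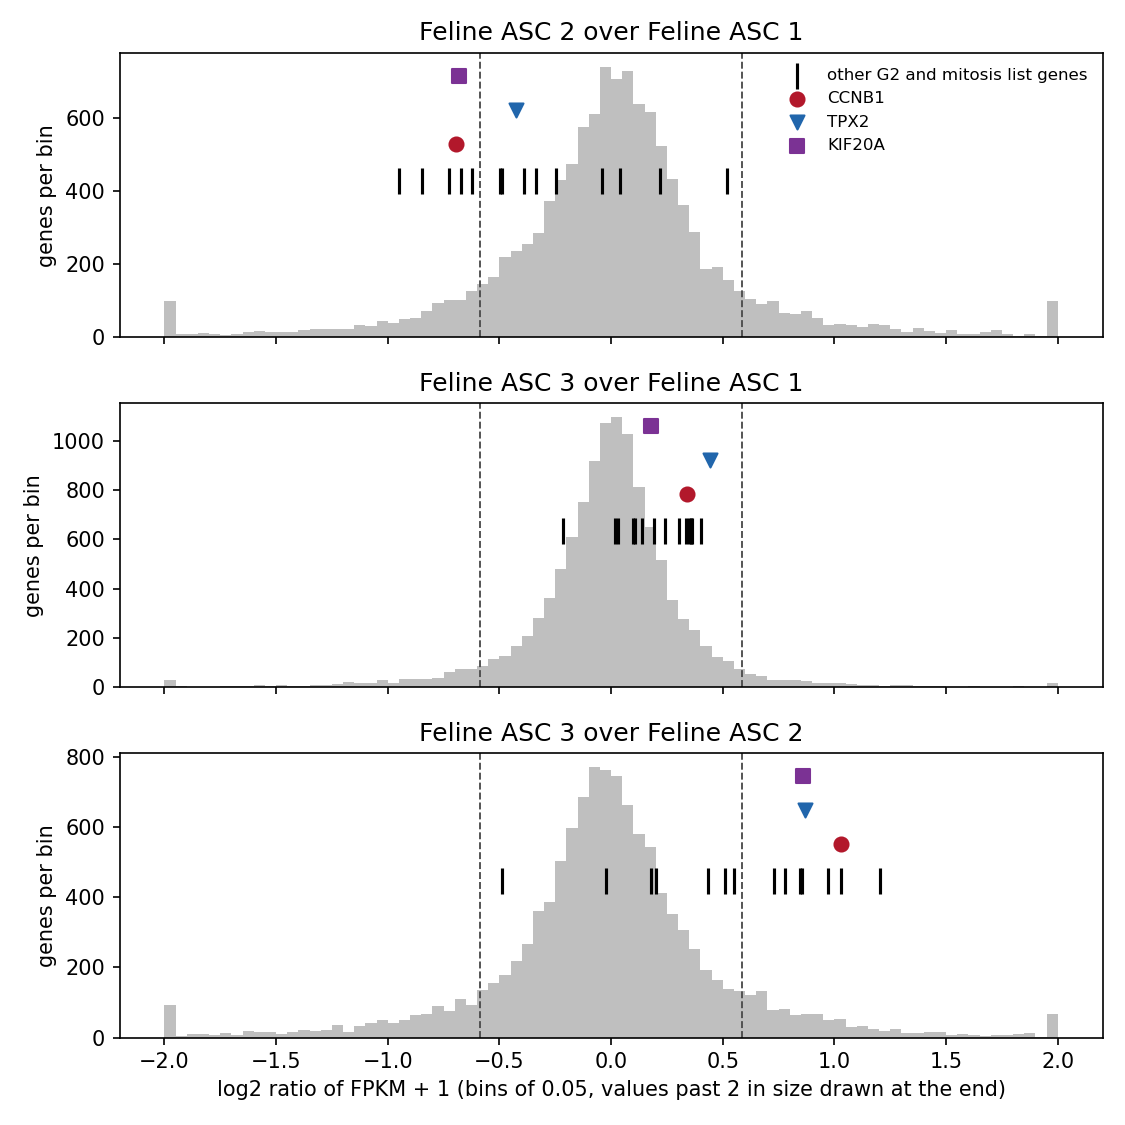
Histograms of the log2 ratio of FPKM + 1 between each pair of lines over the 11601 genes compared (horizontal axis, log2 ratio; vertical axis, genes per bin), with CCNB1, TPX2, KIF20A (coloured symbols) and the 14 other G2 and mitosis genes (ticks) placed at their ratio; the height of symbols and ticks has no meaning, and dashed lines mark 1.5-fold. In the ratio of Feline ASC 3 to Feline ASC 2 the 3 genes lie at 1.03, 0.87 and 0.86, past the right dashed line.

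The proportions of the 3 transcripts to each other varied less between lines than their levels did. CCNB1 was 2.31 times as high as TPX2 in Feline ASC 1, 1.93 times in Feline ASC 2 and 2.12 times in Feline ASC 3. Its ratio to KIF20A was 2.32, 2.35 and 2.59 in the same order. TPX2 and KIF20A were nearly equal in Feline ASC 1, with a ratio of 1.01, and TPX2 was 1.22 times as high as KIF20A in Feline ASC 2 and Feline ASC 3. The coefficient of variation of these ratios was 8.98%, 6.0% and 10.7%, compared with 34.6% for the level of CCNB1, 31.5% for that of TPX2 and 30.5% for that of KIF20A. Since each line gave a single library, the order of TPX2 and KIF20A in Feline ASC 1 is not resolved.

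Beyond the 3 genes, a list of 90 genes of G2 and mitosis was drawn up by role. Of these, 17 (18.9%), including CCNB1, TPX2 and KIF20A, could be matched to an identifier in the part of the gene table at hand. Of the 14 others, 10 (71.4%) ordered the lines as the 3 genes did, against 18.2% of all genes compared. Lowest in Feline ASC 2 were 11 of them, as were 37% of all genes compared. Feline ASC 3 exceeded Feline ASC 2 by 1.5-fold or more for 7 of the 14 (50%), against 9.31% of all genes compared. None was lower by as much, against 9.43%. Their median ratio of Feline ASC 3 to Feline ASC 2 was 1.56-fold, whereas that of all genes compared was 0.988-fold. Over the whole list of 17, 10 genes were higher by 1.5-fold in Feline ASC 3 than in Feline ASC 2, against 9.31% of all genes compared. Lower in Feline ASC 2 than in Feline ASC 1 were 7 genes, against 9.79%. Between Feline ASC 3 and Feline ASC 1, 0 genes passed 1.5-fold. Of all genes compared, 3.43% were higher and 5.29% lower in that pair, so 0 of 17 says little. The list was short and was chosen with earlier results of these data known, so the counts describe these genes and were not tested.

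Among the 4 other matched regulators of mitotic entry, CKS1B and CCNF ordered the lines as CCNB1 did, and CHFR and G2E3 did not. CKS1B, a small subunit of cyclin-dependent kinase complexes, had 14.4, 6.98 and 14.6 FPKM in Feline ASC 1, 2 and 3. CCNF, a cyclin that serves as the substrate receptor of a ubiquitin ligase, was lower throughout, with 4.54, 3.23 and 6.0 FPKM. Feline ASC 3 was 1.96-fold above Feline ASC 2 for CKS1B and 1.66-fold for CCNF, but for CKS1B Feline ASC 1 and Feline ASC 3 were almost equal. CHFR, a ubiquitin ligase that acts in a checkpoint at the entry to mitosis, was highest in Feline ASC 2, with levels of 49.5, 71.4 and 50.6 FPKM in the 3 lines. G2E3, another ubiquitin ligase, had 9.14, 9.43 and 11.0 FPKM, a range of 1.18-fold.

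The spindle factors beside TPX2 were divided. TACC3, which stabilizes the microtubules that carry chromosomes, had 13.1, 6.84 and 17.1 FPKM in Feline ASC 1, 2 and 3, and its 2.30-fold gap between Feline ASC 3 and Feline ASC 2 was the widest of the 17 genes. FAM83D, which brings casein kinase 1 to the spindle, had 7.84, 4.54 and 8.51 FPKM, a gap of 1.72-fold. KPNA2, an importin alpha that binds proteins with a nuclear import signal, including TPX2, was the most abundant gene of the list with 96.2, 80.8 and 119 FPKM and had the same order at 1.47-fold. HAUS8, a subunit of the augmin complex that branches spindle microtubules, was lowest in Feline ASC 2 as well, but highest in Feline ASC 1, with 15.4, 8.91 and 13.1 FPKM. RAE1, which also works in messenger RNA export in all cells, stayed within 1.16-fold and was not lowest in Feline ASC 2.

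Of the genes that act at chromosomes and at the end of mitosis, the 5 matched apart from KIF20A all had the order of CCNB1. Of all genes compared, 18.2% had it. INCENP, the scaffold of the passenger complex that KIF20A moves, had 7.30, 4.88 and 9.57 FPKM in Feline ASC 1, 2 and 3, and SMC2, a core subunit of the condensins, had 12.3, 8.44 and 16.1 FPKM. In both, Feline ASC 3 was about as far above Feline ASC 2 as in KIF20A, at 1.80-fold and 1.81-fold. UBE2C, the ubiquitin-conjugating enzyme through which the anaphase-promoting complex destroys cyclin B1, had 36.8, 23.5 and 49.0 FPKM. Its levels and its 2.04-fold gap were close to those of CCNB1 in each line. FZR1, the activator of the anaphase-promoting complex in late mitosis and G1, was at 18.0 to 24.6 FPKM with a gap of 1.35-fold. The core subunit CDC23 had a gap of 1.13-fold. Their order rests partly on small steps. Feline ASC 1 was 1.03-fold above Feline ASC 2 for CDC23, and Feline ASC 3 was 1.07-fold above Feline ASC 1 for FZR1. No gene of the kinetochore and checkpoint group (15 genes) or of the transcription factors of the programme (5 genes) was matched, so these roles were not analysed here.

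**Figure D3:**
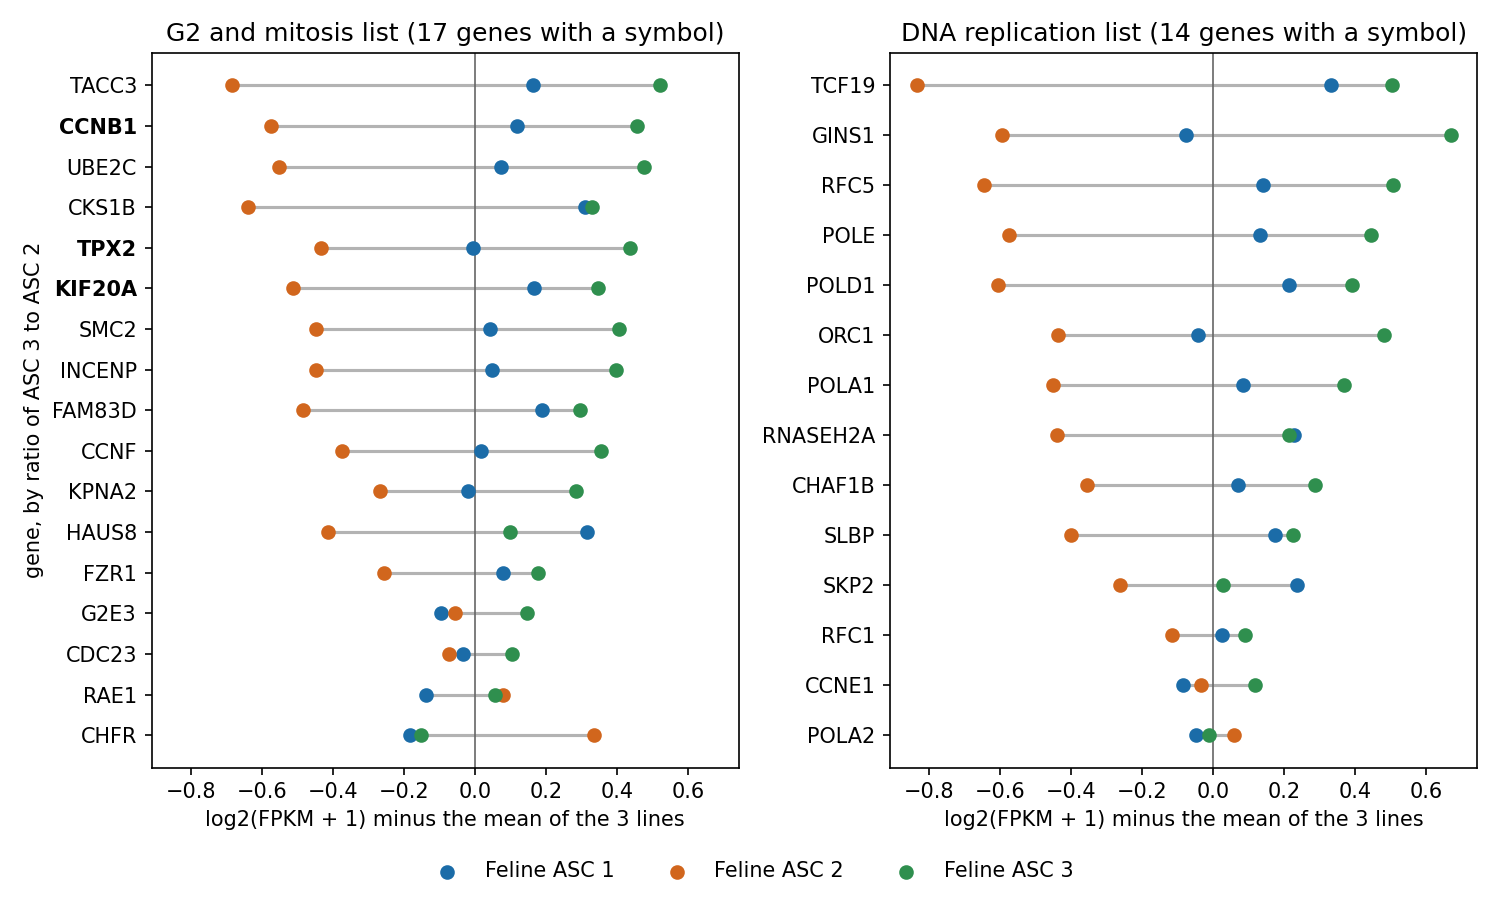
Log2(FPKM + 1) of each line minus the mean of the 3 lines (horizontal axis) for the 17 matched genes of G2 and mitosis (left; CCNB1, TPX2 and KIF20A in bold) and the 14 matched genes of DNA replication (right), sorted by the ratio of Feline ASC 3 to Feline ASC 2; each point is 1 library. Feline ASC 2 is the lowest point in most rows of both panels, and CHFR, RAE1 and POLA2 are the genes in which it is the highest.

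Genes of DNA replication, which act in S phase, before G2, ordered the lines in much the same way. Of the 45 genes listed, 14 were matched, and 10 of them had the order of CCNB1, TPX2 and KIF20A, which 18.2% of all genes compared had. Feline ASC 3 exceeded Feline ASC 2 by 1.5-fold or more for 10 of the 14, against 9.31% of all genes, with a median of 1.67-fold. The genes of widest range were TCF19, a factor that rises at the start of S phase, with 17.2, 7.10 and 19.5 FPKM in Feline ASC 1, 2 and 3, and GINS1, a subunit of the replicative helicase, with 6.29, 4.09 and 11.2 FPKM. RFC5, part of the clamp loader, followed with 20.6, 11.5 and 26.9 FPKM. SLBP, which binds histone messenger RNAs, was the highest of the list at 31.0, 20.5 and 32.2 FPKM, and POLD1, the catalytic subunit of polymerase delta, had 19.1, 10.4 and 21.7 FPKM. Lower in Feline ASC 2 than in Feline ASC 1 by 1.5-fold or more were 5 of the 14, against 9.79% of all genes compared. GINS1 alone also passed 1.5-fold between Feline ASC 3 and Feline ASC 1, at 1.68-fold. Of all genes compared, 3.43% were higher by 1.5-fold or more in that pair, so 1 of 14 says little. RFC1, POLA2 and CCNE1 stayed within 1.16-fold over the 3 lines.

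The matched genes of the G1 group did not both share this order. Only 2 of 15 were matched. CCND2, a D-type cyclin that responds to growth factors, had 120, 80.9 and 59.0 FPKM in Feline ASC 1, 2 and 3, so that the line with the highest mitotic genes had the lowest level. Feline ASC 1 was 2.02-fold above Feline ASC 3 for this cyclin. CDK6, a kinase that partners with the D-type cyclins, had 21.4, 19.5 and 24.7 FPKM and the order of the mitotic genes, within 1.25-fold.

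**Figure D4:**
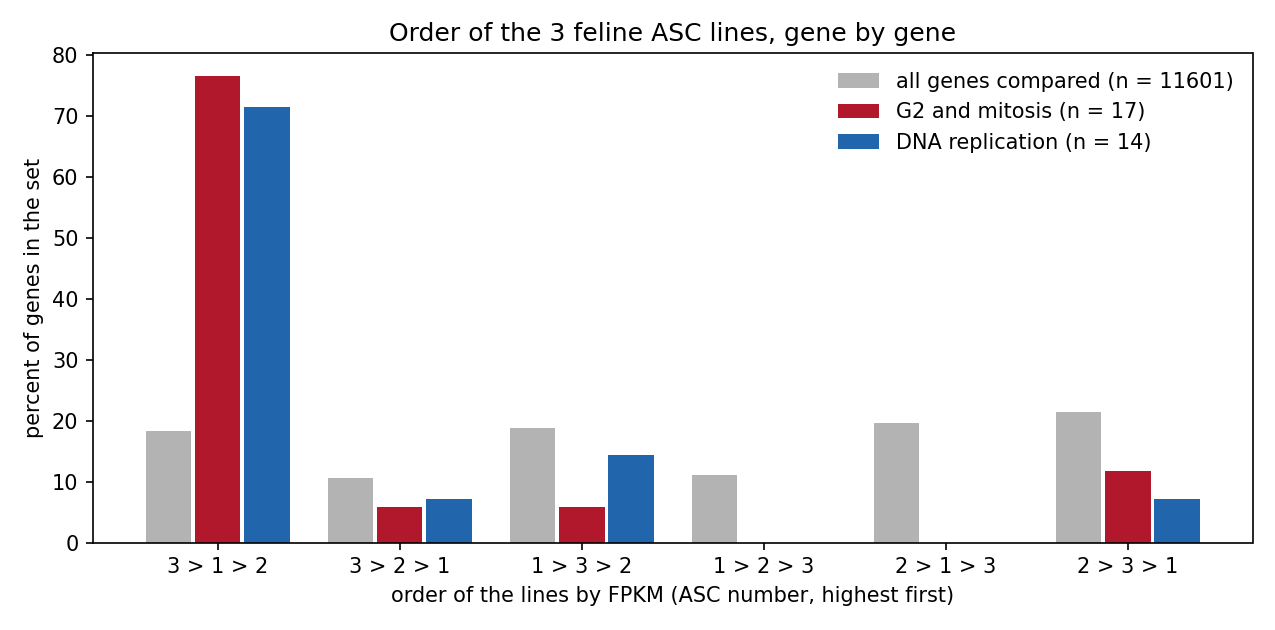
Percent of genes (vertical axis) with each of the 6 possible orders of the 3 lines by FPKM (horizontal axis, highest line first) for all genes compared, the matched G2 and mitosis genes and the matched DNA replication genes. The order Feline ASC 3, 1, 2 holds 18.2% of all genes, 13 of 17 genes of the mitosis list and 10 of 14 genes of the replication list.

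The genes whose pattern over the 3 lines lay closest to the mean of CCNB1, TPX2 and KIF20A were mostly without a symbol, as were the genes searched. Likeness was measured as the Euclidean distance between log2(FPKM + 1) values centred on each gene's mean, over 3 samples and 8838 genes with a mean of 5 FPKM or more. Only 925 of the 8838 have a symbol in the part of the gene table at hand. The closest were ENSFCAG00000012849, ENSFCAG00000010749, ENSFCAG00000011781, ENSFCAG00000030389, ENSFCAG00000014158, ENSFCAG00000025605 and ENSFCAG00000024161, followed by GRAMD2, ENSFCAG00000009459 and ENSFCAG00000009966. Their distances ran from 0.021 to 0.038. CCNB1, KIF20A and TPX2 themselves lay at 0.084, 0.10 and 0.126 from their mean, so that these genes were closer to it than its own members.

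The stromal label was checked against marker genes, few of which could be matched. ENG, COL5A1 and THBS2, the 3 matched of 11 stromal markers, were each above 72.5 FPKM in all lines, and their sum was 424, 681 and 471 FPKM in Feline ASC 1, 2 and 3. The 8 matched of 9 leukocyte markers summed to 9.45, 8.80 and 6.35 FPKM, most of it from CD37. CD2 was listed at 0 in all lines, 6 of the 8 were under 1 FPKM throughout, and PTPRC was not matched. The 4 matched of 7 endothelial markers summed to 6.63, 11.7 and 5.79 FPKM, led by CLEC1A, and PECAM1, CDH5 and KDR were not matched. The stromal and endothelial sums were both highest in Feline ASC 2, the line with the lowest mitotic genes. The stromal sum was carried by COL5A1, with 178, 480 and 261 FPKM. ENG was also highest in Feline ASC 2, with 72.5, 117 and 73.9 FPKM, whereas THBS2 was lowest there, with 173, 84.2 and 136 FPKM. The endothelial sum was carried by CLEC1A, with 4.94, 9.80 and 3.59 FPKM. No other matched endothelial marker was highest in Feline ASC 2: FLT4 and TEK were highest in Feline ASC 3 and BCL6B in Feline ASC 1. The part of these markers in the mitotic values was not tested.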

How the data were processed

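RNA from 3 noninduced feline ASC cultures was sequenced, with 1 library per culture (200 ng of total RNA, 15 PCR cycles, per the labels). Per the study's methods, HISAT was used for alignment to ICGSC Felis Catus 8.0, Cufflinks for quantification and Cuffnorm for normalization. The authors deposited FPKM for each Ensembl gene. Program versions, annotation and the handling of reads shared by gene copies are not given in the sources used here, so genes with near-identical copies are uncertain. The study gives only an approximate number of reads per sample and the files hold no counts, so no intervals were computed.

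Symbols and loci were available for 1811 and 1997 of 21529 genes, from the part of the published gene table that was at hand. A gene not matched here may thus still stand in the full table. Loci are printed as given there. Each file equalled 1 column of that table at all 1997 genes, which set the line numbers. Ratios were computed on FPKM + 1 over 11601 genes with at least 1 FPKM in 1 line, with Python 3.11.15, numpy 2.4.6 and pandas 2.3.3, and plots were drawn with matplotlib 3.10.9. The code was tested on simulated data. No test between lines was possible.

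Genes named were the 3 genes of interest, the matched genes of the mitosis list, the 3 highest and the 3 most variable genes of the other lists, and the 10 genes of closest pattern. Genes and lists were chosen with earlier results of these data known. Alternatives were a pseudocount of 0.1, a 2-fold limit, TPM (each line rescaled to sum to 1000000), quantile normalization, no filter and leaving out each line. Promoter motifs and protein sequences were not analysed here.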

Additional observations from a re-analysis of the deposited data

How the results depend on the processing

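CCNB1, TPX2 and KIF20A kept the order Feline ASC 3 above 1 above 2 under TPM and quantile normalization. Of all genes past the filter, 22.9% had this order under TPM and 19.95% under quantile normalization, against 18.2% for FPKM as deposited. All 27 pair ratios of the 3 genes under a pseudocount of 0.1, TPM and quantile normalization had the direction given. For the pseudocount this was fixed in advance, since it cannot change which of 2 lines is higher. TPM moved the median log2 ratio of all genes from 0.015 to -0.12 between Feline ASC 2 and Feline ASC 1, and the ratio of CCNB1 from -0.69 to -0.84, so that CCNB1 stayed below the median gene. It also raised the mean levels to 60.4 for CCNB1, 28.2 for TPX2 and 24.8 for KIF20A, since its sum is larger by construction. For all genes it gave 887 higher and 1711 lower by 1.5-fold in Feline ASC 2 against Feline ASC 1, where FPKM gave 1090 and 1136. In Feline ASC 3 against Feline ASC 2 it gave 1438 higher and 955 lower, where FPKM gave 1080 and 1094. TPM thus moved all genes toward the order of the mitotic genes. With a limit of 2-fold, the mitosis list had 3 genes higher in Feline ASC 3 than in Feline ASC 2 (10 at 1.5-fold) and 0 lower in Feline ASC 2 than in Feline ASC 1 (7 at 1.5-fold). The replication list then had 4 (10 at 1.5-fold) and 1 (5 at 1.5-fold), and 0 between Feline ASC 3 and Feline ASC 1. The share of all genes past 2-fold was not computed, so these counts have no background. The count of replication genes lower in Feline ASC 2 than in Feline ASC 1 was 9 with a pseudocount of 0.1 and 9 with TPM, and that pseudocount gave 2 higher in Feline ASC 3 than in Feline ASC 1. With TPM the count of all genes lower in Feline ASC 2 also rose, from 1136 to 1711. With that pseudocount the share of all genes was not computed. Of the G1 genes, 1 was lower in Feline ASC 2 than in Feline ASC 1 under TPM and 1 under quantile normalization. Without the filter on low values, 11.8% of all genes had the order of the mitotic genes, because genes at 0 in several lines have none. Leaving out a line leaves a single pair, for which 47.4 to 50.4% of genes have the same order, and it restates the pair values. Without KIF20A and CDC23, chosen after seeing the data, 11 mitosis genes had the order, where the whole list had 13. This follows by subtraction, since both genes had the order, and it is no further check. No paired analysis was possible because all samples belong to 1 group.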

Other observations

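A further list of 14 other cell cycle genes was drawn up from the symbols at hand after the values above had been seen. It was not fixed in advance, so its counts describe these genes and were not tested. Of the 14, 8 (57.1%) had the order of CCNB1, TPX2 and KIF20A, against 17.3% of the 1190 genes compared that have a symbol. The 8 include CEP72, which had 0.663, 0.415 and 0.932 FPKM in Feline ASC 1, 2 and 3. It was thus below the limit for the genes compared. Feline ASC 3 was above Feline ASC 2 by 1.5-fold or more for 3 of the 14, against 9.31% of all genes compared. The reverse, by as much, held for 1 (CABLES1), against 9.43%. MXD3, a transcriptional repressor of the MAX network, had 3.33, 1.94 and 4.54 FPKM in Feline ASC 1, 2 and 3, and CCSAP, a protein of centrioles and the spindle, had 4.37, 2.46 and 4.63 FPKM. HAT1, which acetylates newly made histone H4, had 34.0, 27.9 and 38.6 FPKM. UBE2T, the ubiquitin-conjugating enzyme of the Fanconi anaemia pathway, was lowest in Feline ASC 2 as well, with 10.1, 5.80 and 8.88 FPKM, but highest in Feline ASC 1. CABLES1, which links cyclin-dependent kinases to ABL signalling, went the other way between Feline ASC 2 and Feline ASC 3, with 8.08, 6.32 and 3.82 FPKM.

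Among the 925 genes with a symbol and a mean of 5 FPKM or more, the 10 closest in pattern to the 3 mitotic genes included 7 that stand on the mitosis and replication lists. These were POLA1, INCENP, SMC2, UBE2C, POLE, FAM83D and POLD1, whereas such genes made up 2.59% of the 925. The other 3 were GRAMD2, LIPA, a lysosomal lipase, and EMP3, a membrane protein, which was far more abundant at 191, 119 and 242 FPKM. This ranking was restricted to genes with a symbol after the values had been seen. Among all 8838 genes searched, the 7 list genes ranked from 28th (POLA1) to 140th (POLD1). Their order over the lines was already counted above, so this is no further check.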
